A study of Mus musculus with 2 samples.

Results

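The genes of MHC class I antigen presentation were examined in day 5 blasts of mouse 5cc7 T cells. The set comprises 10 genes, B2m, Tap1, Tap2, Tapbp, H2-T23, Erap1, Calr, Canx, Pdia3 and Nlrc5, and was measured by every probe set annotated to 1 of these symbols alone. A probe set is a group of short oligonucleotides on the array that together report 1 transcript region. The rule gave 20 probe sets of 9 genes, among 45037 probe sets and 18193 named genes. H2-T23 had no probe set of its own, because both probe sets that carry its name also carry H2-T-ps.

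5cc7 T cells bear a T cell receptor for a peptide of moth cytochrome c. They were stimulated in culture with that peptide, MCC in the labels, and RNA was taken 5 days later. Complementary RNA was hybridised to 2 Affymetrix mouse 430 2.0 arrays, called set 1 and set 2, which form 1 group with no resting or untreated counterpart. Both labels read experiment 1 of 2. They do not say whether separate cultures were used, and the spread between the arrays may thus be technical only. Strain, sex, age and the cells that presented the peptide are not stated in the labels.

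MHC class I molecules show peptides of the cell's own proteins at the surface of nearly all nucleated cells, where CD8 T cells and natural killer cells read them. The proteasome cuts the peptides, the TAP transporter carries them into the endoplasmic reticulum, and a loading complex of tapasin, calreticulin and an oxidoreductase holds the heavy chain and its partner beta-2-microglobulin until a peptide fits. T lymphocytes carry class I themselves, and interferon gamma raises much of the pathway in many cell types.

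Values are the deposited intensities on a linear scale in arbitrary units, with the mean ± SD of both arrays (n = 2). The array medians were 36.4 and 37.9. The background bound was the 95th percentile of the probe sets for genes of liver, eye, pancreas and kidney, which was 55.7 for set 1 and 60.2 for set 2. Probe sets that exceeded it on both arrays are called above background. A gene was called above background when at least 1 of its probe sets was. With 1 group there is no contrast to test and no p-value, and precision is limited by having only 2 arrays. Probes differ in how strongly they bind, so an intensity is read against the bound and not as an abundance relative to another gene.

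Of the 20 probe sets, 17 were above background, and these covered 9 of the 9 measured genes. Over the whole array 36.9% of probe sets and 46.3% of named genes were above background. The genes were chosen with their place in the pathway and earlier results of these arrays known, so the count describes them and tests nothing. The 3 probe sets below the bound all belonged to Tap1. At the edge of the bound, a Pdia3 probe set (1445330_at) lay just above it at 57.8 and 66.2, and a Tap1 probe set (1448177_at) lay just below it at 50.6 and 57.4.

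**Figure D1:**
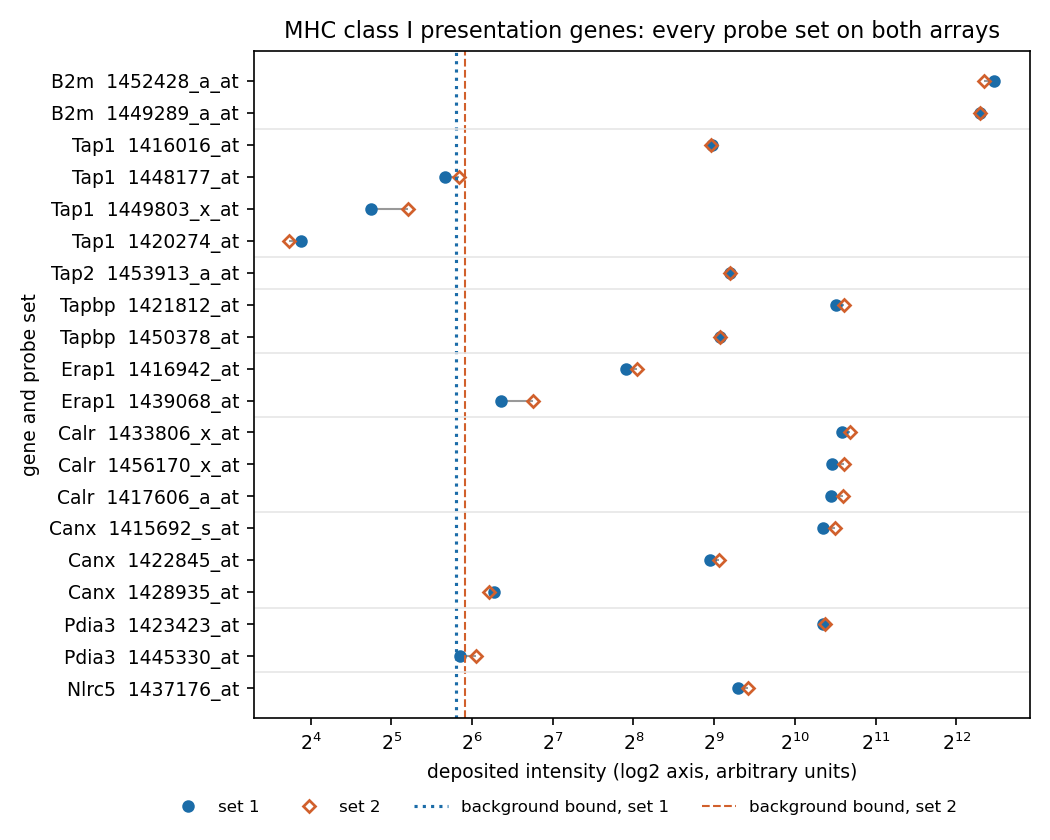
Deposited intensity (log2 axis, arbitrary units) of each of the 20 probe sets of the 9 measured genes, with set 1 as filled circles and set 2 as open diamonds, and the background bounds of 55.7 and 60.2 as vertical lines. The 2 arrays lie close together for nearly every probe set, B2m lies farthest to the right, and 3 of the 4 Tap1 probe sets lie left of the bounds.

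B2m encodes beta-2-microglobulin, the invariant light chain without which class I heavy chains do not reach the surface. Its probe set 1452428_a_at read 5682.6 on set 1 and 5213.1 on set 2 (5448 ± 332). The other, 1449289_a_at, read 5036 and 5013.2 (5025 ± 16.1). Both stood at more than 83 times the bound on either array, and in the deposited values both read lower on set 2, an order that changes for 1449289_a_at when the arrays are centred by intensity class or quantile normalised. H2-T23 encodes Qa-1, a heavy chain with little variation that shows signal peptides to CD94/NKG2 receptors. The probe sets shared by H2-T23 and H2-T-ps gave opposite calls, with 1449556_at at 1214.8 and 1156.8 and 1419658_at at 24.8 and 16.5. They were left out of all counts, since neither can be assigned to H2-T23 alone.

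Tap1 and Tap2 encode the paired subunits of the peptide transporter, which uses ATP to bring peptides into the endoplasmic reticulum. The Tap2 probe set (1453913_a_at) read 588.4 and 588.6 (588.5 ± 0.141). For Tap1, 1416016_at read 504.6 and 499.2 (502 ± 3.82), which is above background on both arrays. The remaining Tap1 probe sets were not, with 1448177_at at 54.0 ± 4.81, 1449803_x_at at 27 and 36.9, and 1420274_at at 14.7 and 13.3. The call for Tap1 therefore rested on 1 of 4 probe sets, and the median over its probe sets, 43.0, was below the bound. In the RefSeq order of protein-coding genes on GRCm38.p6, only Psmb8 lies between Tap1 and Tap2, and no protein-coding gene lies between Tap1 and Psmb9. Psmb8 and Psmb9 encode immunoproteasome subunits and are described with the pathway.

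Tapbp encodes tapasin, which bridges the transporter to the heavy chain and edits its peptide. Its probe set 1421812_at read 1461 and 1558.3 (1509.65 ± 68.8), and 1450378_at read 536.2 and 537.3 (537 ± 0.778). Both were above background on both arrays. Pdia3 encodes ERp57, the oxidoreductase bound to tapasin. Its probe set 1423423_at read 1308.2 and 1331.6 (1319.9 ± 16.5), while 1445330_at read 57.8 and 66.2 (62.0 ± 5.94). The Pdia3 call thus had 1 probe set far above the bound and 1 that passed it by a factor of 1.04 on set 1 and 1.10 on set 2.

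Calr encodes calreticulin, a soluble lectin chaperone of the loading complex. Its 3 probe sets read 1529 and 1645.8 (1433806_x_at), 1406.3 and 1562.3 (1456170_x_at), and 1396.5 and 1551.2 (1417606_a_at). All 3 were above background, their means spanned 1474 to 1587, and each was higher on set 2. Canx encodes calnexin, the membrane-bound relative of calreticulin that holds newly made heavy chains. Its probe sets were less alike, at 1305 and 1450.2 for 1415692_s_at (1378 ± 103), 493.7 and 533.8 for 1422845_at (514 ± 28.4) and 77.3 and 74.3 for 1428935_at (75.8 ± 2.12). All 3 were above background, the dimmest by a factor of 1.39 on set 1 and 1.23 on set 2.

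Erap1 encodes the aminopeptidase that trims peptides to fit the class I groove. Its probe set 1416942_at read 240.4 and 264.4 (252 ± 17.0), and 1439068_at read 82 and 108.2 (95.1 ± 18.5). Both were above background, and the dimmer one had the widest spread of the 17, with a coefficient of variation of 19.5%. Nlrc5 encodes the class I transactivator, which works at class I promoters with the RFX proteins, CREB/ATF factors and NF-Y. Its only probe set (1437176_at) read 625.9 and 681.9 (654 ± 39.6), at more than 11 times the bound on both arrays. The 3 dim probe sets that passed, of Canx, Erap1 and Pdia3, read no higher than the brightest gene of the list that set the bound, Kap, a kidney gene at 127.4 and 129.6. For these genes a brighter probe set carried the call.

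The windows of 250 bases before the gene starts were read from RefSeq on GRCm38.p6 for 8 of the 10 genes. Tap2 and Nlrc5 were not matched. The windows shown are the 4 that hold both the letters bound by NF-Y (CCAAT) and the core of the element bound by CREB/ATF factors (TGACG), those of B2m, Tap1, Canx and Pdia3. They run 5′ to 3′ on the strand of the gene, and end at the base before the start. Capitals mark every match, on either strand, to CCAAT, to TGACG, to the GC box GGGCGG bound by Sp1 and to the core of the interferon-stimulated response element, searched as a pair of TTTC separated by any 2 bases. B2m lies at chr2:122147437-122147686 (plus strand), Tap1 at chr17:34187306-34187555 (plus strand), Canx at chr11:50325674-50325923 (minus strand) and Pdia3 at chr2:121413652-121413901 (plus strand).
B2m: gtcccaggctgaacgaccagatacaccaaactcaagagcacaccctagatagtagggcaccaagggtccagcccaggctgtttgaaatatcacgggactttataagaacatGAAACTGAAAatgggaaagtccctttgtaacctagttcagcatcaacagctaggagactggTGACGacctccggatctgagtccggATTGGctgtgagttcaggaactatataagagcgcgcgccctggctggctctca
Tap1: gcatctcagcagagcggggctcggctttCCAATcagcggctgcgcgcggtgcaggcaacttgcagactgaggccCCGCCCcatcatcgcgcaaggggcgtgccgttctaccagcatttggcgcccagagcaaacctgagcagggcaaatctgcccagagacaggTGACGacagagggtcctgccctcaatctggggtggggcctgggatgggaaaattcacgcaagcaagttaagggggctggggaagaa
Canx: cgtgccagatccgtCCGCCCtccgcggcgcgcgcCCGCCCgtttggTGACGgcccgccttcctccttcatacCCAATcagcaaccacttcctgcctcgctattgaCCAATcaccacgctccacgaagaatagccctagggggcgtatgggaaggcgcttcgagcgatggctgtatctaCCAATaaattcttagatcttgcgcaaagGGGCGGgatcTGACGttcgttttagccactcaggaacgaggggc
Pdia3: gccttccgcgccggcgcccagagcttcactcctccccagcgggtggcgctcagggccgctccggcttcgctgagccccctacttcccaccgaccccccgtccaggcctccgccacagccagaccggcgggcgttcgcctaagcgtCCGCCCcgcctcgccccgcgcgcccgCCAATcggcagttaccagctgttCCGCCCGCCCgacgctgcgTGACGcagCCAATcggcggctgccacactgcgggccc

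CCAAT was present in the windows of 7 of the 8 genes, all but Erap1, and in 33.8% of all 32851 windows of this length. TGACG was present in 4 of 8, against 17.8% of all windows, and both together in 4 of 8, against 6.12%. GGGCGG was present in 5 of 8, those of Tap1, Tapbp, Calr, Canx and Pdia3, against 32.7%. The interferon-stimulated response core was present for B2m, read on the gene's strand as its reverse complement GAAACTGAAA, 139 to 130 bases before the start, and for H2-T23, against 2.98% of all windows. The interferon gamma-activated site TTCNNNGAA was in none of the 8 windows and in 7.02% of all. In the 4 windows shown, the only overlap between matches was of 2 GC boxes in Pdia3. The 32851 windows were not matched to the 8 for base composition or type of gene, so the shares test nothing. These are letter matches in short windows and do not show binding.

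Differences between the arrays are given on the log2 scale, set 2 minus set 1, after subtraction of the median over all probe sets above background. Of the 17 probe sets above background, 0 differed by more than 1.5-fold, and 2.62% of all probe sets above background did. The median difference of the 17 was 0.08, with a range from -0.15 for B2m (1452428_a_at) to 0.37 for Erap1 (1439068_at). By sign, 10 read higher on set 2 and 7 lower, where 50% of all probe sets above background are higher by construction. Without centring the split was 13 higher and 4 lower. The 50% does not apply to that split, since the median over all probe sets above background was then 0.027. The share of all of them that read higher without centring was not counted. The median coefficient of variation was 5.52% for the 17 and 6.47% for all probe sets above background. Neither this comparison nor that with 2.62% was matched for intensity. The spread fell with intensity, with an SD of the difference of 0.33 for means of 64 to 128 and 0.15 for 1024 to 2048.

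The difference between the arrays also moved with intensity over the whole array. Its median was 0.02 for probe sets with a mean of 64 to 128 and -0.12 for those of 4096 to 8192, the class of B2m, where the SD was 0.09. Relative to that class, the B2m probe sets differed by -0.04 and 0.08, so the lower reading of both on set 2 did not hold on this scale. The 3 Calr probe sets differed by 0.11 to 0.16 from their class (SD 0.15), and the brightest Canx probe set by 0.16. The direction for Calr, Erap1 and Nlrc5 was higher on set 2 under each scaling tried, and for Canx in 2 of 3 probe sets. Measured this way, the farthest of the 17 lay at 1.05 SD from the median of its class. Each SD was taken over all probe sets of the class, also those not above background. The share of all probe sets within such a distance was not counted.

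**Figure D2:**
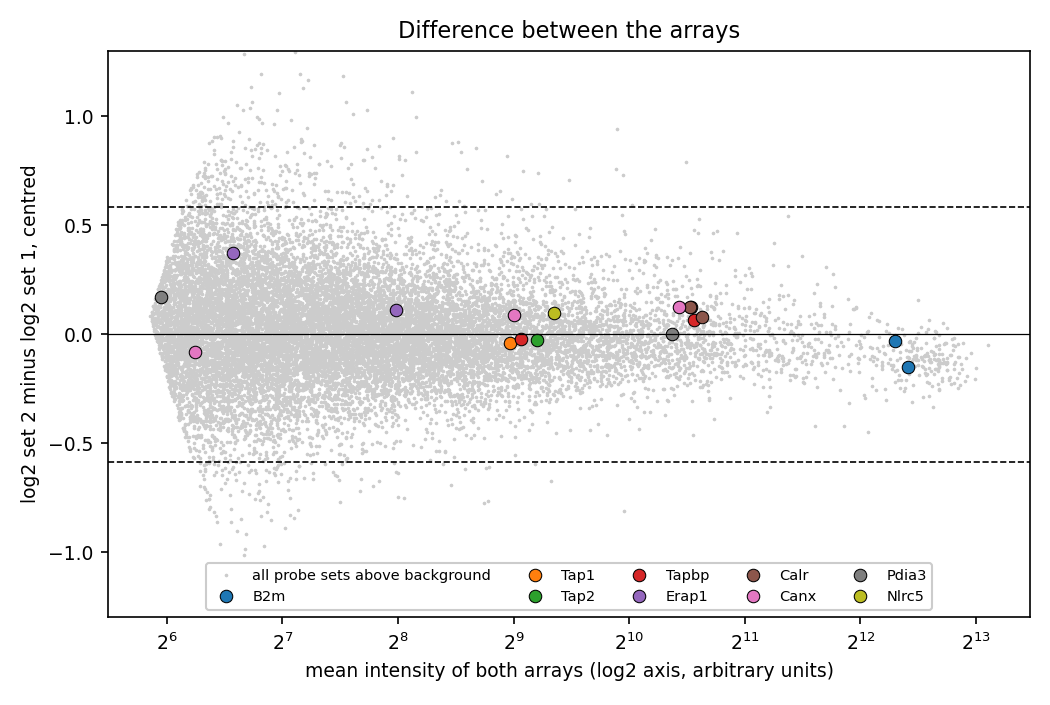
Centred log2 difference between set 2 and set 1 against mean intensity (log2 axis), with all probe sets above background in grey and the 17 of the class I genes coloured by gene. Dashed lines mark 1.5-fold, 10 probe sets lie outside the plotted range of ± 1.3, and all coloured points lie inside the dashed lines.

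The rest of the pathway was taken from 8 lists of 97 other genes. Of these 79 were measured and 64 were above background, where 46.3% of all named genes were. Each gene of these lists, and of the cell marker and class II lists below, is given by its brightest probe set. That is the probe set with the highest mean of both arrays. Other probe sets of the same gene can be far dimmer, and the SD does not cover them. Class I heavy chains are partners of B2m, and the classical ones are polymorphic and hold the peptide. Of 10 measured heavy chain genes 6 were above background, among them the classical H2-D1 at 5740.9 and 4886.9, H2-K1 at 3549.8 and 3599.2, and H2-M3, which shows formylated peptides, at 483 and 454.8. H2-T3, H2-M10.1 and H2-T24 were at 164 ± 14.1, 87.7 ± 18.3 and 71.4 ± 0.990. H2-M10.1 and H2-T24 read lower on both arrays than the kidney gene Kap of the list that set the bound. H2-Bl, H2-Q10, H2-M9 and H2-Q2 were not above background, at 58.3 ± 1.27, 47.5 ± 7.85, 12.8 ± 7.07 and 0.3 ± 0.141. Heavy chain genes are close copies of each other, so their probe sets may bind transcripts of several, and those with several symbols were not analysed here. Of H2-D1, 8 of 9 probe sets were above background, and the means of the 9 ran from 31.8 to 5314.

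Other chains that pair with B2m were above background in 2 of 5 cases. Cd1d1, which shows lipids to natural killer T cells, was at 227 ± 12.9, and Mr1, which shows vitamin metabolites to MAIT cells, at 87.3 ± 0.354. The Mr1 call rested on 1 of 2 probe sets. The iron regulator Hfe was at 43.2 ± 1.63, the neonatal Fc receptor gene Fcgrt at 25.3 ± 4.60 and Cd1d2 at 20.6 ± 19.0, none above background.

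Proteasome genes were above background in 8 of 8 cases. The inducible immunoproteasome subunits Psmb8, Psmb9 and Psmb10 were at 2714 ± 70.1, 1504 ± 75.1 and 781 ± 9.19. The dimmer of the 2 Psmb8 probe sets had a mean of 143. The constitutive subunits they replace, Psmb5, Psmb6 and Psmb7, were at 697 ± 21.8, 424 ± 41.0 and 1254 ± 47.9. The PA28 activator gene Psme1 was at 2064 ± 110.1 and the assembly factor gene Pomp at 1076 ± 7.50. Peptidase genes were above background in 7 of 8 cases, with Tpp2, which shortens long proteasome products, at 595 ± 0.0707, Blmh at 328 ± 31.0 and Ide at 323 ± 12.2. Nrd1 was at 295 ± 9.83, Npepps at 292 ± 8.27, Lap3 at 153 ± 16.9 and Prep at 151 ± 5.09. Thop1, which degrades class I ligands in the cytosol, was not above background at 38.6 ± 5.80.

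Genes of folding and translocation in the endoplasmic reticulum were above background in 18 of 18 cases. The chaperone gene Hspa5 (BiP) was at 1994 ± 160.1, the channel gene Sec61b at 1722 ± 163 and the prolyl isomerase gene Ppib at 1547 ± 2.62. Regulators of class I genes and of interferon gamma signalling were above background in 15 of 16 cases, with Jak1 at 2577 ± 123, Creb1 at 961 ± 21.4 and the receptor gene Ifngr1 at 836 ± 83.2. The second receptor chain gene, Ifngr2, was not above background at 42.4 ± 5.94. Between the arrays, the probe sets above background that differed by more than 1.5-fold numbered 1 of 17 for heavy chains, 1 of 9 for the proteasome, 2 of 19 for peptidases, 0 of 34 for folding and 0 of 26 for regulators, beside the 2.62% of the whole array. None did so among the 3 of other B2m partners, the 7 of receptors and the 9 of close relatives.

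Receptors that bind class I were above background in 5 of 8 cases. Klrd1 (CD94) and Klrc1 (NKG2A), which form the inhibitory receptor for Qa-1, were at 1629.9 ± 75.1 and 223 ± 19.9. Klrc2 and Klrc3, of the same gene family, were not, at 4.2 ± 0.283 and 0.5 ± 0.283, nor was Pirb at 7.3 ± 5.94. The coreceptor genes Cd8b1 and Cd8a were at 213 ± 31.7 and 66.5 ± 1.20, and Cd160 was at 155 ± 25.0. For Cd8a the call rested on 1 of 5 probe sets, and the count for the list was 3 when the median over probe sets gave the level.

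Close relatives of the members were above background in 6 of 9 cases. Tapbpl, a second peptide editor, was at 335 ± 2.97, the TAP-like transporter gene Abcb9 at 251 ± 2.76 and Nlrc3 at 262 ± 14.1. The oxidoreductase genes P4hb and Pdia4 were at 1334 ± 80.4 and 73.6 ± 6.93, and Nlrx1 was at 70.1 ± 1.70. The calls for Tapbpl and Pdia4 each rested on 1 of 2 probe sets. The calreticulin and calnexin relatives of testis, Calr3 and Clgn, were not above background at 20.3 ± 5.02 and 6.2 ± 3.25, nor was Nod1 at 60.3 ± 7.28.

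**Figure D3:**
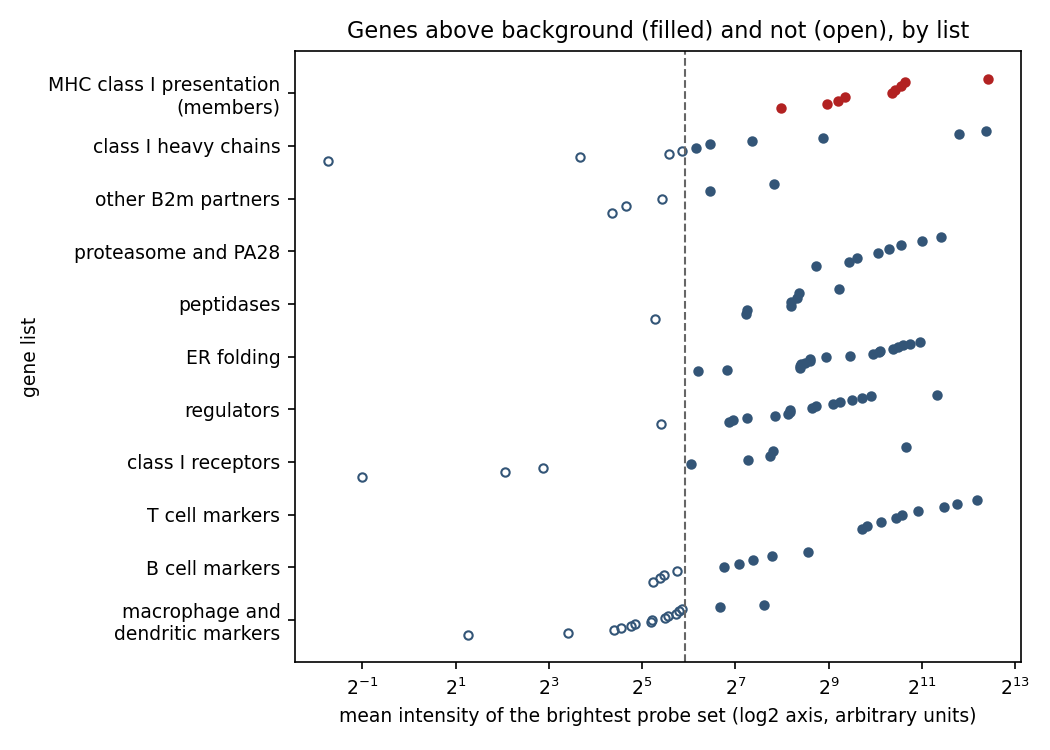
Mean intensity of the brightest probe set (log2 axis, arbitrary units) for each measured gene of the class I genes (red), the related lists and the marker lists, with the bound of set 2 as a dashed line. Filled points are above background and open points are not. All 9 class I presentation genes and all 8 proteasome genes are filled, and 13 of 15 macrophage and dendritic cell markers are open.

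Class I is made by nearly all cells, so markers of other cells were read on the same arrays. T cell markers were above background in 9 of 9 cases, and their summed intensity was 19151 on set 1 and 18223 on set 2. The sums given for marker lists include every measured gene, also those not above background. They compare the 2 arrays for 1 list, and not 1 list with another. The chains of the CD3 complex, Cd3d, Cd3g and Cd3e, were at 4671 ± 299, 2843 ± 11.4 and 1398 ± 46.7. The surface glycoprotein genes Thy1, Cd2, Cd4 and Cd5 were at 3449 ± 139, 1933 ± 107, 1119 ± 95.2 and 839 ± 10.7, and the receptor signalling genes Lat and Zap70 at 1529 ± 42.3 and 906 ± 71.9.

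B cell markers were above background in 5 of 9 cases, with a sum of 1211 and 1159. Ms4a1 (CD20) was at 377 ± 17.4 and Cd22 at 221 ± 10.04, the latter with 1 of 2 probe sets above background. The B cell receptor chain genes Cd79b and Cd79a were at 165 ± 1.20 and 108 ± 14.1, and the adaptor gene Blnk at 135 ± 2.90. The transcription factor genes Pax5 and Ebf1 were not above background at 53.9 ± 0.212 and 37.6 ± 14.4, nor was Cr2 at 44.7 ± 10.7. Fcer2a (CD23) was at 57.5 on set 1 and 26.4 on set 2, above the bound on set 1 alone.

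Macrophage and dendritic cell markers were above background in 2 of 15 cases, Batf3 at 198 ± 32.5 and Csf1r at 57.3 and 146.7, with a sum of 658 and 834. Adgre1 at 58.2 ± 26.1, C1qb at 28.8 ± 0.495 and C1qa at 2.4 ± 0.424 were not, and the count was 4 on set 2 alone. Fibroblast, endothelial and epithelial markers were above background in 4 of 12 cases, with a sum of 921 and 823. Pecam1, listed as an endothelial marker, was at 326 ± 36.8, and Epcam, listed as an epithelial one, at 189.8 ± 21.1. The Epcam call rested on 1 of 2 probe sets. The endothelial receptor gene Kdr was at 67.0 ± 0.0707. The collagen genes gave unlike calls. Col1a2 was above background at 63.3 ± 3.82, on 1 of 3 probe sets. Col3a1 and Col1a1 were not, at 34.9 ± 0.778 and 24.6 ± 5.52, nor was the endothelial cadherin gene Cdh5 at 23.1 ± 4.31. The part of such cells in the class I intensities was not tested. In bulk RNA, more cells of a type and more RNA per cell cannot be told apart.

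MHC class II genes, the presentation pathway of antigen-presenting cells, were above background in 8 of 9 cases, where 46.3% of all named genes were. The count was 6 when the median over probe sets gave the level. The call rested on 1 of 3 probe sets for H2-Ab1 and 1 of 2 for H2-DMa. The invariant chain gene Cd74 was at 694 ± 41.1. The class II chain genes H2-Eb1, H2-Aa and H2-Ab1 were at 363 ± 5.94, 237 ± 33.4 and 109 ± 1.41. The related genes H2-Oa, H2-DMb2, H2-DMa and H2-Ob were at 432 ± 30.8, 155 ± 0.849, 102 ± 2.26 and 71.2 ± 10.7. Their transactivator gene Ciita, a relative of Nlrc5, was not above background at 42.7 ± 1.13.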

How the data were processed

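Expression was measured in 2 arrays of 1 group. The deposited values are intensities, taken to be linear because they span 0 to 8860.2. No source used here names the authors' background correction, probe summary or scaling. After 64 control probe sets were left out, 45037 remained. Gene names came from GEO's platform annotation, which gave 34945 of them 1 symbol, and symbols were checked against RefSeq (GRCm38.p6) by gene identifier. The bound came from 62 probe sets of 44 off-tissue genes. Of these genes 3 lie above it, a count largely set by the percentile itself. Of 49 genes of other organs, which did not set the bound, 7 lie above it. Intensities under 1 were set to 1 before log2. Intensity classes are powers of 2 of the mean. Members and lists were chosen with earlier results of these data known. Every member is named. Lists with up to 10 measured genes are named in full. Longer ones are named by the 3 brightest genes above background and up to 3 others in alphabetical order. Col1a2 is named in addition, because other collagen genes of its list are. Alternatives were other bounds, single arrays, the median over probe sets, other suffixes of probe sets and other scalings. Centring within intensity classes was chosen after seeing the data. The bound, the calls and the centring on the median were tested on simulated data in which dim and bright probe sets lay far apart. Calls near the bound and the alternatives were not tested in this way. Python 3.11.15, numpy 2.4.6 and pandas 2.3.3 were used.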

Additional observations from a re-analysis of the deposited data

How the results depend on the processing

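The number of class I genes above background was 9 with the bound at the 90th percentile, from a second off-tissue list or at the array median, on either array alone, and without the probe sets whose suffix (_s_at or _x_at) marks shared sequence. It was 8 when the median over probe sets gave the level, since Tap1 was then not above background, and 39.1% of all named genes were above it. The count of probe sets was 18, 15 and 18 with the 3 other bounds and 17 on either array alone. Without the shared-sequence probe sets it was 14 of 16. The count of pathway genes ran from 59 to 69. Over the whole array, the share of probe sets above background was 39.7%, 30.5% and 46.4% with the 3 other bounds, and that of named genes 49.0%, 40.2% and 55.4%. The share of named genes was 48.3% on set 2 alone, 49.0% on set 1 alone and 45.1% without the shared-sequence probe sets. The share of probe sets was 39% on set 2 alone, 39.5% on set 1 alone and 35.1% without the shared-sequence probe sets. The median difference between the arrays ran from 0.08 to 0.11 over the 5 other scalings and filters, and 0 probe sets passed 1.5-fold under any of them. Of all probe sets above background, 2.84% passed it without centring and 2.64% after quantile normalisation. The share was 1.65% with 16 added before log2 and 2.67% with centring within intensity classes. With no filter on background, 29.2% of all probe sets passed it. Of the marker and pathway lists, the macrophage and dendritic cell count was 7 with the bound at the array median and 4 without set 1, against 2. The fibroblast, endothelial and epithelial count was 2 with the second off-tissue bound, against 4, and the class I receptor count was 3 with the median over probe sets, against 5. With the second off-tissue bound, the counts of heavy chains and of close relatives were each 4, against 6. The level of Canx was 514 by that median and 1378 by the brightest probe set, and that of Pdia3 691 and 1319.9. No paired analysis was possible because the arrays form 1 group. Signal over background limits the dimmest probe sets of Canx, Erap1 and Pdia3, and with 2 arrays of unknown relation the spread between cultures was not measured.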
